A study of Gallus gallus with 12 samples.

Results

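The regions described here are 2547 stretches of open chromatin in the embryonic chicken eye that were open in all groups of the study and ranked higher at HH34 than at HH30, both in dorsal retina and in the margin of the optic fissure (OFM). They were taken from 127749 union regions made from the peak lists of the study, of which 77405 had a peak in all 4 lists and 72877 of those lay on chromosomes 1 to 28. Peaks that overlapped by at least 1 bp were merged into a region. Within each list the peaks were ranked by the authors' area score, and the percentile of a peak is 100 for the top of its list and 0 for the bottom. A region was kept when the percentile of its best peak was at least 10 points higher at HH34 than at HH30 in each tissue, and when OFM and dorsal retina were less than 10 points apart at each stage. The members were thus chosen by these values, which are given below as a description and support nothing.

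The study measured open chromatin by omni-ATAC-seq, in which the transposase Tn5 cuts accessible DNA of isolated nuclei and leaves sequencing adapters there. The groups were OFM at HH34, dorsal retina at HH34, OFM at HH30 and dorsal retina at HH30, where HH is the Hamburger-Hamilton stage of the chicken embryo. All groups came from wildtype hy-line chicken eggs, with 3 libraries per group, each from the pooled tissue of 10 embryos. Both tissues were dissected by hand from the same eyes, with 50000 cells counted for a library and at least 189 M reads of 75 bp per library, per the labels. The authors called peaks over the libraries of a group together, so each group has 1 list and no value per library. No difference below could be held against replicate spread, and no test between groups was run. The embryos of HH34 and HH30 were not the same ones, so stage and embryo set cannot be told apart. Cell types were not checked against markers, because the lists hold no gene names.

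An open region usually marks a promoter, an enhancer or an insulator, where bound proteins keep nucleosomes away. In the retina, progenitor cells divide and leave the cell cycle in turn to become ganglion cells, horizontal and amacrine cells, photoreceptors, bipolar cells and Müller glia, and the set of open enhancers changes as they do so. The optic fissure is a ventral gap of the optic cup whose margins meet and fuse during eye development, while dorsal retina has no fissure. In bulk tissue, more cells with a region open and a wider or stronger opening per cell cannot be told apart.

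The rank of a region says where it stands among the other peaks of its list, and not how open it is. Of the shared regions, 14.4% stood at least 10 points higher at HH34 in OFM and 10.9% in dorsal retina. They stood at least 10 points lower at HH34 in 15.4% and 20.7% of cases. The condition was met upward in both tissues by 5886 regions (8.08%) and downward in both by 8699 (11.9%). Of the regions that stood 10 points higher at HH34 in OFM, 55.9% did so in dorsal retina, and of those that did so in dorsal retina, 74.0% did in OFM. Opposite directions past 10 points in the tissues were found in 375 regions (0.515%). With the criterion on the tissues, the rising regions made up 3.49% of the shared regions, and 5.11% of the 49823 regions whose tissues lay within 10 points at each stage. The mirror rule gave 4170 falling regions, or 5.72% and 8.37% of the same sets. The steady regions, which changed by less than 10 points in both tissues and met the same criterion on the tissues, numbered 37910. Rising regions were thus 37.9% of the rising and falling regions together. This split depended on the scale: it was 48.1% when shared regions were ranked among themselves alone. The HH34 lists are shorter (105103 peaks in OFM and 101452 in dorsal retina at HH34, against 108689 and 106170 at HH30), and the median shared region changed by −0.61 points in OFM and −1.39 points in dorsal retina.

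**Figure D1:**
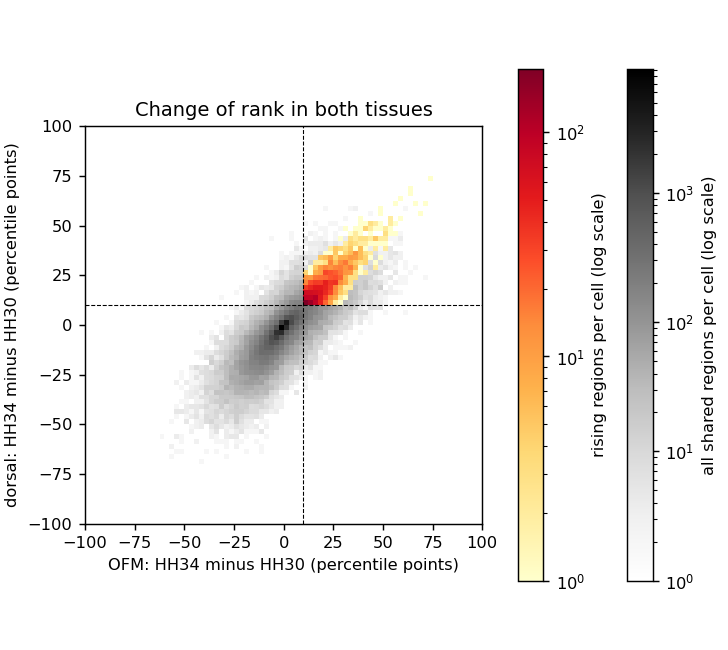
Change of percentile (HH34 minus HH30) in OFM on the x axis and in dorsal retina on the y axis, in percentile points, with the number of regions per cell on log colour scales. The 72877 shared regions (grey) lie along the diagonal. The corner from 10 points upward on both axes (dashed lines) holds 5886 of them. The 2547 rising regions (colour) are those of the corner that also met the criterion on the tissues.

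Most rising regions climbed within the middle of the lists. Their median percentile in OFM was 56.8 at HH34 (quartiles 43.6 and 69.1), against 34.9 at HH30 (20.8 and 49.9). In dorsal retina it was 58.2 at HH34 (44.8 and 70.7), against 37.0 at HH30 (22.0 and 52.3). Falling regions spanned a similar band in the other direction, with medians of 33.7 in OFM and 31.6 in dorsal retina at HH34, against 52.5 and 51.7 at HH30. Steady regions stood well above both, at medians of 79.0 and 78.2 at HH34 and of 79.2 and 79.4 at HH30. Regions near the top of a list have no room to gain 10 points, so these high ranks follow in part from the definition of steady regions. The medians of all shared regions were 61.9 in OFM and 60.4 in dorsal retina at HH34, against 62.7 and 62.4 at HH30. Rising regions thus stood a little below the median shared region at HH34 and far below it at HH30.

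The rise was modest in most regions. Taking the smaller of the OFM and dorsal rises, 1191 regions (46.8%) gained 10 to 15 points, 575 (22.6%) gained 15 to 20, 561 (22.0%) gained 20 to 30, 206 (8.09%) gained 30 to 50 and 14 (0.550%) gained 50 or more. Among falling regions, 749 (18.0%) lost 20 to 30 points and 249 (5.97%) lost 30 to 50. The OFM and dorsal rises were within 5 points of each other in 1710 rising regions (67.1%), and the dorsal rise was the larger one in 43.9%. The criterion on the tissues limits how far apart the rises can lie, so the first share follows in part from the rule. It was not counted over all shared regions. Under percentile 25 in both HH30 lists were 690 rising regions (27.1%), of which 77 stood above percentile 50 in both HH34 lists. Over percentile 75 in both HH34 lists were 333 (13.1%), and over 90 in both were 28.

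The share of shared regions that met the rule was lower the higher the rank at HH30. Of the regions with a mean HH30 percentile under 10, 216 of 980 (22.0%) were rising regions. The share was 10.7% between percentiles 10 and 20, 5.09% between 40 and 50, 2.32% between 60 and 70 and 0.167% between 80 and 90. Above percentile 90 it was 0 of 9930 by construction, because a gain of 10 points would leave the scale there. A low rank at HH30 also leaves more room upward than downward, and 0 of the 980 lowest regions could meet the mirror rule.

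**Figure D2:**
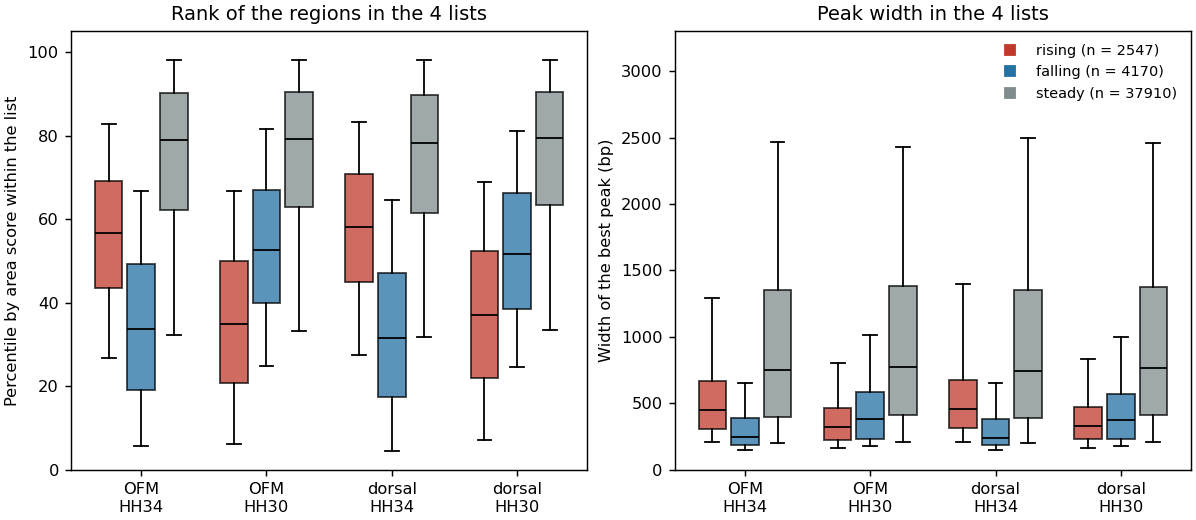
Percentile by area score (left) and width of the best peak in bp (right) of rising, falling and steady regions in each of the 4 lists. Boxes give quartiles and the median, and whiskers the 5th and 95th percentile of the regions. Rising regions have median percentiles of 56.8 and 58.2 at HH34, against 34.9 and 37.0 at HH30, and median widths of 446 and 455 bp at HH34, against 321 and 327 bp at HH30.

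The peaks of rising regions were wider and had a higher −log10 q at HH34. These measures come from the same peaks as the rule, and the area score sums over the width of a peak, so they describe how the rank changed. Median peak widths in rising regions were 446 bp (OFM) and 455 bp (dorsal retina) at HH34, against 321 bp and 327 bp at HH30. The peak was wider at HH34 in 2456 rising regions in OFM (96.4%) and in 2466 in dorsal retina (96.8%), with a median ratio of HH34 to HH30 width of 1.24 and 1.25. The authors' −log10 q at the summit had a median of 8.33 in OFM and 8.52 in dorsal retina at HH34, against 5.66 and 5.71 at HH30. It was higher at HH34 in 2521 (OFM) and 2530 (dorsal) of the 2547 regions. Of all shared regions, 40.5% in OFM and 38.1% in dorsal retina had a wider peak at HH34. A higher −log10 q at HH34 was found in 44.2% and 47.5% of them. Steady regions had a median width ratio of 0.990 in OFM and 0.989 in dorsal retina, and falling regions one of 0.816 and 0.819.

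The peaks were also ranked on other values, with the best peak of a region picked anew by each value. Ranked by −log10 q at the summit, 2130 of the 2547 rising regions (83.6%) gained 10 points in both tissues. By this value, 2515 (98.7%) stood higher at HH34 in both. Ranked by area score over peak width, a mean height, 1753 (68.8%) gained 10 points in both and 2162 (84.9%) stood higher in both, while 157 (6.16%) stood lower in both. Requiring the tissues to lie within 10 points as well, 1745 of the rising regions met the whole rule by −log10 q and 1137 (44.6%) by mean height. Over all shared regions, 2786 met the whole rule by −log10 q and 3056 by mean height. These values come from the same peaks as the rule, so the counts describe the members and support nothing. Gains without the criterion on the tissues were not counted over all shared regions.

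Rising regions were split by the number of peaks they hold. In 2238 rising regions (87.9%) each list had a single peak, against 90.9% of falling, 90.2% of steady and 89.6% of all shared regions. The share was thus near that of all shared regions. It was 99.1% in steady regions weighted to the HH30 ranks of the rising regions. In the other 309 rising regions at least 1 list had several peaks. In 174 of these (6.83% of the rising regions) each HH34 list had 1 peak where each HH30 list had 2 or more. Both HH34 lists held fewer peaks than the HH30 lists in 7.15% of rising regions, against 0.0240% of falling and 0.934% of steady regions. The reverse, more peaks at HH34 in both tissues, was found in 0 rising regions (upper Wilson limit 0.151%, counting error only). It was found in 5.04% of falling and 1.18% of steady regions. The rule ranks a region by its best peak alone, so joined peaks tend to raise its rank and split peaks to lower it. These shares thus follow in part from the rule and are description only.

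Among the rising regions, those with several peaks were wide and stood high at HH34. Their median width was 1220 bp, against 438 bp for regions with 1 peak in each list, and their median percentile at HH34 was 76.8, against 55.0. Their best peak was 2.43 times as wide at HH34 as at HH30 in OFM and 2.32 times in dorsal retina, against 1.20 and 1.20 in regions with 1 peak. Their rise in mean height was small, with a median of 2.54 points in OFM and 4.11 in dorsal retina, against 21.0 and 20.7 in regions with 1 peak. Where the area score was summed over all peaks of a list in a region, 110 of the 309 (35.6%) still met the rule. In regions with 1 peak in each list the sum is that peak's own score, so this setting could move their ranks little. A region with several peaks of a list spans all of them, so its width follows in part from its definition. Falling, steady and all shared regions with several peaks were not described in this way. The values are thus not shown to be particular to rising regions.

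The summit, the base that the caller reports as the top of a peak, lay close to the same place at both stages in most rising regions. The HH34 and HH30 summits lay a median of 5 bp apart in OFM and 5 bp in dorsal retina, and within 50 bp of each other in 85.5% and 85.4%. The OFM and dorsal summits lay within 50 bp in 90.2% at HH34 and in 90.1% at HH30. All 4 summits lay within 50 bp in 1927 rising regions (75.7%), against 85.8% of falling and 83.7% of steady regions. Steady regions weighted to the HH30 ranks of the rising regions reached 90.2%. Summits more than 200 bp apart between the stages were found in 6.32% of rising regions in OFM and 6.16% in dorsal retina, against 3.72% and 4.08% of steady regions. The 1761 regions with 1 peak in each list and all summits within 50 bp (69.1%) had a median width of 416 bp and a median percentile of 54.5 at HH34, against 32.7 at HH30.

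The 10 regions with the largest rise in both tissues lay near the bottom of the HH30 lists and in the upper part of the HH34 lists. Positions are those of the lists (builds galGal6 and GRCg6a in the submitters' processing notes), counted from 1. No genome or annotation of that build was used, so genes near these regions are not named and no sequence is shown.

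The first was chromosome 5, positions 52070898 to 52071660. Its percentile was 76.0 in OFM and 80.7 in dorsal retina at HH34, against 2.66 and 7.24 at HH30, so that it stood near the bottom of both HH30 lists and high in both HH34 lists. The peak was 747 and 763 bp wide at HH34, against 323 and 324 bp at HH30. Its −log10 q was 12.2 and 14.5 at HH34, against 3.48 and 3.50 at HH30, and the 4 summits lay on the same base. The nearest region found in both HH34 lists alone was 106177 bp away, and the nearest other rising region 301571 bp away. A region of some list lay 461 bp away, and 13 other shared regions lay within 50 kb.

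The second, on chromosome 1 at positions 77911630 to 77912547, had percentiles of 66.3 in OFM and 69.7 in dorsal retina at HH34, against 1.88 and 1.43 at HH30. It widened to 918 bp in both tissues at HH34, against 214 and 201 bp at HH30, again with all summits on 1 base.

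On chromosome 7 a pair of regions from this set of 10 lay 132448 bp apart. The third of the 10 was at positions 4559208 to 4559838 and had percentiles of 66.1 in OFM and 68.2 in dorsal retina at HH34, against 3.49 and 1.83 at HH30. The eighth was at positions 4426284 to 4426759 and had 58.5 and 67.7 at HH34, against 2.94 and 6.02 at HH30. No other rising region lay between them, since each was the nearest rising region of the other.

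The fourth, on chromosome 26 at positions 1339796 to 1341554, was the widest of the 10. Its percentiles were 74.5 in OFM and 75.8 in dorsal retina at HH34, against 7.82 and 14.5 at HH30. The peak spanned 1744 and 1746 bp at HH34, against 558 and 302 bp at HH30, and the dorsal HH30 list held 2 peaks in it. Its summits were spread over 673 bp, and a region found in both HH34 lists alone lay 5852 bp away.

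The fifth, on chromosome 2 at positions 89713223 to 89713830, had percentiles of 76.0 in OFM and 73.8 in dorsal retina at HH34, against 4.07 and 13.7 at HH30. A region in both HH34 lists alone lay 34594 bp away. The sixth, on chromosome 21 at positions 6172414 to 6173466, had 74.0 and 77.5 at HH34, against 15.2 and 14.6 at HH30. Another rising region lay 8878 bp from it and a region in both HH34 lists alone 19754 bp away. The fourth, the fifth and the sixth were also the 3 largest rises with a region of both HH34 lists alone within 50 kb.

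The seventh, on chromosome 6 at positions 36155295 to 36156196, reached the highest HH34 percentile of the 10 in OFM, while the first had the highest in dorsal retina. Its percentiles were 84.4 in OFM and 80.1 in dorsal retina at HH34, against 16.8 and 23.1 at HH30. Each HH30 list held 2 peaks in it, of which the better one was 217 and 200 bp wide, while each HH34 list held 1 peak of 885 and 892 bp. The ninth, on chromosome 15 at positions 3815925 to 3816572, had percentiles of 68.9 and 64.7 at HH34, against 9.88 and 9.73 at HH30. The tenth, on chromosome 1 at positions 106542513 to 106543300, had 69.8 and 71.6 at HH34, against 17.0 and 17.7 at HH30. It also joined 2 HH30 peaks in each tissue, and another rising region lay 389 bp away.

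**Figure D3:**
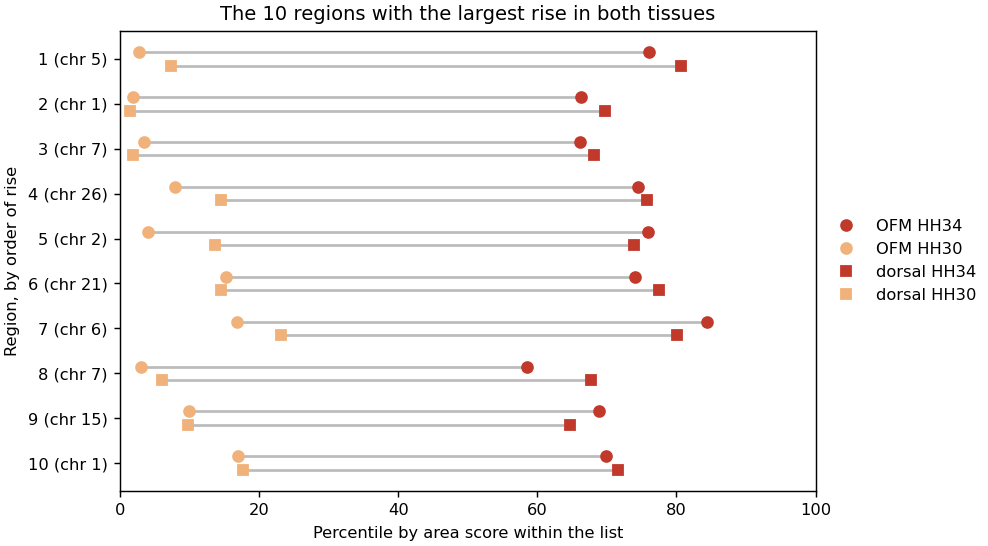
Percentile by area score of the 10 regions with the largest smaller rise, in OFM (circles) and dorsal retina (squares), at HH34 (red) and HH30 (orange), with the chromosome of each region. The HH34 values run from 58.5 to 84.4 and the HH30 values from 1.43 to 23.1. The regions were picked by the rise in these values, so the stages could not overlap.

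The 5 rising regions with the highest HH34 rank each held several HH30 peaks, as the seventh and the tenth of the regions above do. On chromosome 7 at positions 22059959 to 22071100, the OFM percentile was 97.2 at HH34, against 77.1 at HH30, and the dorsal percentile 97.1 at HH34, against 73.4 at HH30. A single HH34 peak covered 10721 bp (OFM) and 11137 bp (dorsal retina) there, while the HH30 lists held 7 and 6 separate peaks, the best of them 1617 and 1351 bp wide. At 11142 bp it was the widest of all rising regions, and a region in both HH34 lists alone lay 110 bp from its edge.

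On chromosome 17 at positions 2287095 to 2290224 the percentiles were 96.9 in OFM and 97.9 in dorsal retina at HH34, against 84.4 and 87.3 at HH30, with 1 peak of 3071 and 3130 bp at HH34 in place of 2 at HH30. On chromosome 27 at positions 7225144 to 7229450 they were 95.3 and 96.9 at HH34, against 83.6 and 85.6 at HH30. The peak there was 4299 bp wide in OFM at HH34, against 1858 bp for the best of 4 peaks at HH30. Chromosome 21, positions 2881176 to 2884824, had 95.2 and 97.7 at HH34, against 72.1 and 81.1 at HH30. Chromosome 1, positions 196394000 to 196396586, had 95.1 and 95.4 at HH34, against 82.3 and 85.3 at HH30. Its −log10 q was 28.3 and 27.5 at HH34, against 19.1 and 19.9 at HH30. Of the 28 rising regions above percentile 90 in both HH34 lists, 26 had 2 or more peaks in a HH30 list. The same count was not made over all shared regions above percentile 90. The rule ranks a region by its best peak, so joined peaks tend to raise the rank, and the count is description only.

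At the threshold of 10 points, members and non-members had nearly the same values. Just inside lay chromosome 20 (747150 to 747922), chromosome 27 (6989515 to 6993702) and chromosome 13 (16316190 to 16316451), with smaller rises of 10.003, 10.005 and 10.007 points. Just outside lay chromosome 26 (2218083 to 2218876), chromosome 6 (13264845 to 13265550) and chromosome 24 (6328137 to 6328396), with 9.9998, 9.991 and 9.990 points.

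Rising regions took a larger share of the shared regions on small chromosomes. The chicken genome has a few large chromosomes and many small microchromosomes, which are known to be rich in genes and in G and C bases. Rising regions were 1081 of 36647 shared regions on chromosomes 1 to 5 (2.95%, 95% Wilson interval 2.78% to 3.13%), 463 of 13261 on chromosomes 6 to 10 (3.49%, 3.19% to 3.82%) and 1003 of 22969 on chromosomes 11 to 28 (4.37%, 4.11% to 4.64%). These intervals cover counting error alone. Falling regions ran the other way, with 6.58%, 6.28% and 4.03% in the same order. The ratio of rising to falling regions was 0.448 on chromosomes 1 to 5, 0.556 on 6 to 10 and 1.08 on 11 to 28. Ranked among shared regions alone, the ratios were 0.641, 0.850 and 1.80, so the order of the classes held on both scales while the level did not. With tissues required to lie within 5 points, the ratio on chromosomes 11 to 28 was 0.983, with 414 rising and 421 falling regions.

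Single chromosomes followed the same order with exceptions. Falling regions outnumbered rising ones on all 10 of chromosomes 1 to 10, and rising regions outnumbered falling ones on 12 of chromosomes 11 to 28. The share of rising regions was highest on chromosome 25, with 34 of 507 (6.71%) against 3 falling ones (0.592%). Chromosome 28 had 51 of 899 (5.67%) and 19 falling regions (2.11%), and chromosome 23 had 60 of 1085 (5.53%) and 30 falling (2.76%). Among chromosomes 11 to 28, chromosome 11 had 62 of 1873 (3.31%) and 125 falling (6.67%), close to the large chromosomes. All shared regions moved with this order: their median change in OFM was 0.27 points on chromosomes 11 to 28, −0.85 on 6 to 10 and −1.18 on 1 to 5, and in dorsal retina 0.038, −1.71 and −2.48. The gradient was therefore not particular to the rising regions.

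**Figure D4:**
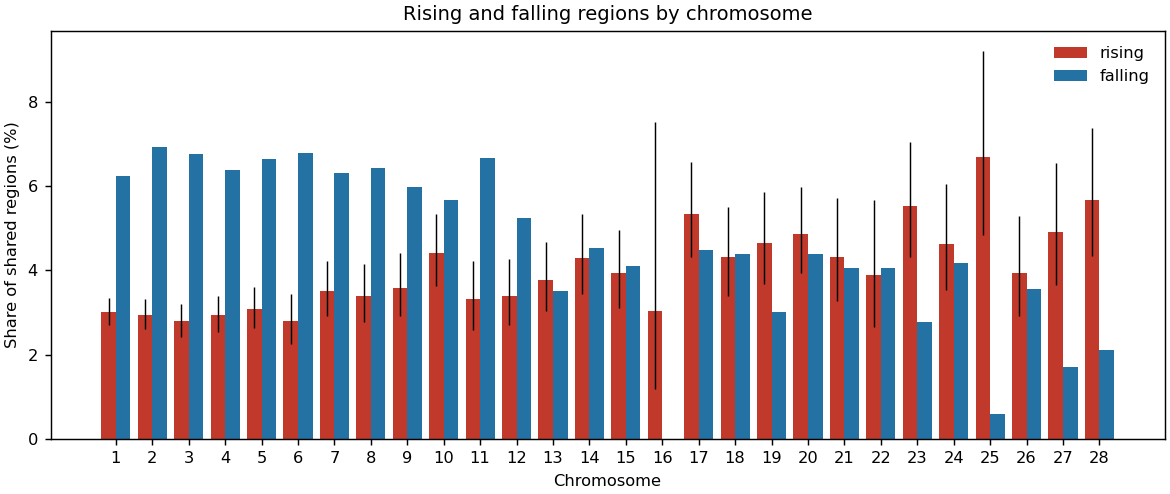
Share of shared regions that were rising (red, with 95% Wilson intervals for counting error) and falling (blue) on each of chromosomes 1 to 28, in percent. Falling regions lead on chromosomes 1 to 12, and on chromosome 25 rising regions reach 6.71%, against 0.592% falling.

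Shares also differed along the large chromosomes. Within 2 Mb of an end of chromosomes 1 to 5, with the last peak taken as the end, 80 of 2048 shared regions were rising (3.91%, 3.15% to 4.84%) and 3.61% were falling. Farther than 10 Mb from an end, 832 of 29396 were rising (2.83%, 2.65% to 3.03%) and 6.75% falling. Near the ends the shares of both kinds were thus closer to those of chromosomes 11 to 28.

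Rising regions lay in denser stretches than falling ones. The median gap to the nearest region of any list was 756 bp for rising regions, 1442.5 bp for falling and 921 bp for steady ones. Within 50 kb of its midpoint a rising region had a median of 21 other union regions, against 15 for a falling and 18 for a steady one. No region of any list lay within 10 kb of 115 rising regions (4.52%), against 9.66% of falling and 5.77% of steady regions. These values were not split by chromosome class. Of rising regions 39.4% lay on chromosomes 11 to 28, against 22.2% of falling and 32.8% of steady ones, and the part of this in the values was not tested.

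Other rising regions were found nearby more often than around the rest. Another rising region lay within 50 kb of 1180 rising regions (46.3%), against 23.9% of falling and 34.4% of steady regions. Steady regions weighted to the HH30 ranks of the rising regions had 34.1%. Within chromosome classes the shares for rising and steady regions were 31.1% and 25.3% on chromosomes 1 to 5, 46.7% and 34.1% on 6 to 10, and 62.6% and 48.3% on 11 to 28. The density of regions was higher around rising regions, and its part in these shares was not tested. Counted per neighbour instead, which takes density into account, 3.47% of the union regions within 50 kb of a rising region were rising, against 1.96% around falling and 2.65% around steady regions.

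Direct neighbours were also counted. Of the shared regions directly next to a rising region, 5.85% were rising themselves and 3.95% were falling. Next to a falling region, 2.41% were rising and 9.64% falling, and next to a steady region 3.49% were rising and 5.39% falling. Only 285 rising regions (11.2%) had a rising region as the next shared region, in 136 runs of 2 or more, of which 11 had 3 or more and the longest had 4. Most rising regions thus had no rising region as a direct neighbour.

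The change of other shared regions around rising regions was higher than around falling and steady regions. The 24139 other shared regions within 50 kb of a rising region had a median change of 0.26 points in OFM and −0.15 in dorsal retina. Around falling regions these values were −0.88 and −1.79 over 29714 neighbours, and around steady regions −0.56 and −1.29 over 69239. The neighbours include other members, which were 4.87% of those around rising regions, against 3.20% around falling and 3.53% around steady ones. Averaged over both tissues, the median around rising regions was −0.70 on chromosomes 1 to 5, −0.29 on 6 to 10 and 1.00 on 11 to 28, against −1.71, −1.24 and 0.14 around steady regions. The difference between the neighbours of rising and of steady regions was small beside the spread among neighbours, whose quartiles in OFM were −3.37 and 6.52 points around rising regions. With the median of its own chromosome subtracted from each change averaged over both tissues, the neighbours of rising regions were at 0.92, those of falling regions at −0.32 and those of steady regions at 0.058. The neighbours share libraries and lists with the members.

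The difference was smaller at larger distances. Counted over pairs and averaged over both tissues, the median change of shared regions was 1.37 points at under 5 kb from a rising region, 0.86 at 5 to 10 kb, 0.50 at 10 to 25 kb, 0.22 at 25 to 50 kb and −0.21 at 250 to 500 kb. Around falling regions it was −2.41 under 5 kb and −0.97 at 250 to 500 kb. Around steady regions it stayed between −0.47 and −0.16 over all distances. The share of rising regions among the neighbours of a rising region was 7.61% under 5 kb and 4.15% at 250 to 500 kb, where steady regions had 3.87%.

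**Figure D5:**
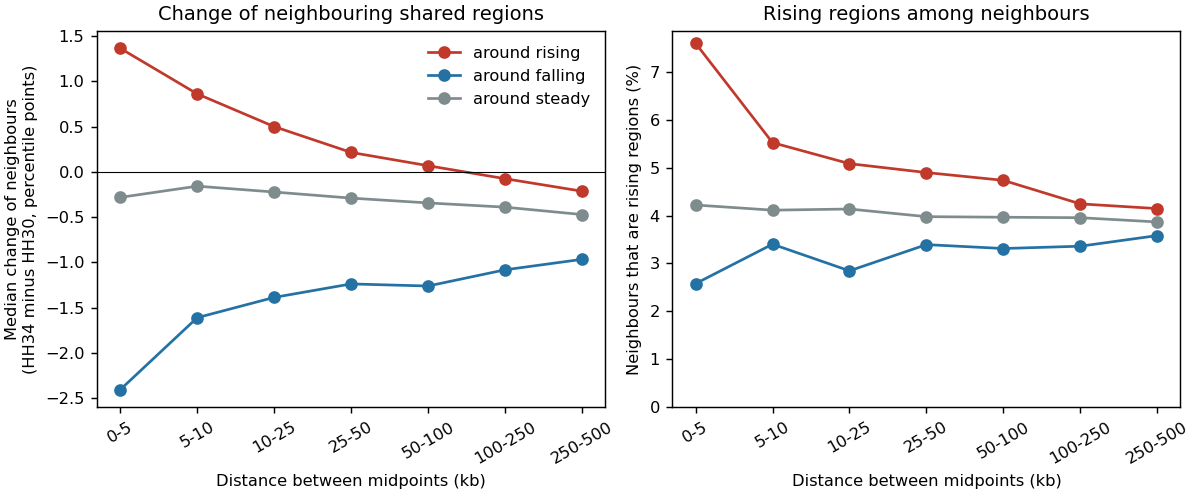
Median change of neighbouring shared regions (left, HH34 minus HH30, percentile points averaged over OFM and dorsal retina) and share of rising regions among them (right, percent) by distance between midpoints in kb, around rising, falling and steady regions. Around rising regions the median is 1.37 points under 5 kb and −0.21 at 250 to 500 kb.

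Regions that were called at HH34 in both tissues and at HH30 in neither were frequent around rising regions. These regions are no members of the shared set, but their peaks count in the ranks of their lists. One lay within 50 kb of 1621 rising regions (63.6%, 61.8% to 65.5%), against 38.3% of falling and 49.9% of steady regions, and 50.3% of steady regions weighted by HH30 rank. Regions in both HH30 lists alone showed the opposite order and lay within 50 kb of 48.4% of rising, 61.1% of falling and 54.3% of steady regions.

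Counted per neighbour, 6.59% of all union regions within 50 kb of a rising region were in both HH34 lists alone and 3.25% in both HH30 lists alone, a ratio of 2.03. The ratio was 0.597 around falling and 1.12 around steady regions. On chromosomes 1 to 5 it was 1.27 around rising, 0.460 around falling and 0.723 around steady regions. On chromosomes 6 to 10 it was 1.57, 0.552 and 0.898, and on chromosomes 11 to 28 it was 3.22, 0.973 and 1.92. The ratio was thus higher around rising than around steady regions in each class of chromosomes. All 4 lists enter these counts and the rule alike.

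Regions restricted to a tissue were counted in the same way. A region in both OFM lists alone lay within 50 kb of 27.2% of rising regions, 23.8% of falling and 26.3% of steady ones. The order of rising and steady regions differed between chromosome classes. For rising, falling and steady regions the OFM shares were 24.6%, 22.1% and 25.1% on chromosomes 1 to 5. They were 25.3%, 23.8% and 26.6% on chromosomes 6 to 10, and 30.8%, 28.3% and 28.1% on 11 to 28. A region in both dorsal lists alone lay within 50 kb of 24.3% of rising, 17.4% of falling and 20.2% of steady regions. These dorsal shares differed by chromosome class, and the gaps were smaller within a class. For rising, falling and steady regions they were 16.7%, 12.2% and 13.7% on chromosomes 1 to 5. On chromosomes 6 to 10 they were 25.3%, 21.6% and 22.2%, and on 11 to 28 they were 32.1%, 27.4% and 28.8%.

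Windows of 500 kb were ranked by their number of rising regions, which also depends on how many shared regions they hold. The most were found on chromosome 18 between 8786858 and 9286857, where 18 of 140 shared regions were rising (12.9%) and 3 were falling. The window also held 25 regions of both HH34 lists alone and 2 of both HH30 lists alone, and its shared regions had a median change of 3.50 points. On chromosome 10 between 19516730 and 20016729, 15 of 111 shared regions were rising (13.5%) and 1 was falling, with 19 regions of both HH34 lists alone and 2 of both HH30 lists alone. A second window on chromosome 10, between 2942788 and 3442787, had 14 rising regions of 111 (12.6%) and 1 falling one. It held 12 regions of both HH34 lists alone and 4 of both HH30 lists alone. All of these shares stand above the 3.49% of all shared regions. The windows were picked by their count of rising regions, which favours a high share without fixing it, so the shares are description only.

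Among windows with at least 20 shared regions, the highest shares came from sparse stretches, as a ranking by share favours windows with few regions. They were 4 of 20 on chromosome 2 (38866784 to 39366783), 4 of 20 on chromosome 9 (21080998 to 21580997) and 5 of 26 on chromosome 7 (32534987 to 33034986). The windows on chromosomes 2 and 9 had median changes of −3.50 and −0.16 points over all their shared regions, averaged over both tissues, where the median of all shared regions was −0.98. The window on chromosome 7 had a median change of 5.31 points. In the windows on chromosomes 2, 9 and 7, regions of both HH34 lists alone numbered 1, 0 and 3. Regions of both HH30 lists alone numbered 2, 2 and 1 there. The same counts over all windows are not given here.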

How the data were processed

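Omni-ATAC-seq peaks of 4 groups of chicken eye tissue were analysed, from 12 libraries. The libraries of a group share 1 joint peak call by the authors, per the labels. The submitters' processing notes name cutadapt 1.16, Bowtie2 2.3.4.3, SAMtools 1.6 and Genrich 0.6, with the builds galGal6 and GRCg6a, and settings are not given in the sources used here. The deposited lists have 10 columns and no header. Column 7 was read as the area score of the authors, and the capped score of the authors equals 1000 times area over width, at most 1000, in 100% of peaks (tolerance 1 unit). The −log10 q at the summit is the deposited value of the authors. Library depth was not analysed here beyond the minimum in the labels.

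Regions were merged and ranked with Python 3.11.15, pandas 2.3.3 and numpy 2.4.6, with tied scores given their mean rank. Intervals are 95% Wilson intervals (scipy 1.17.1). Neighbours lie within 50 kb. Merging and selection were checked on simulated data in which each region had a single peak per list. Regions with several peaks of a list were not part of this check. Regions named in the text are the 10 largest smaller rises, the 5 highest HH34 ranks, the 3 on each side of the threshold, the 3 largest rises near a region of both HH34 lists alone, and 3 windows of 500 kb by count and by share. Members, lists and tests were chosen with earlier results of these data known. The gene table at hand is of another assembly, and peaks ran past its last gene on 21 of 28 chromosomes, so gene lists, motifs and annotation were not run. Alternatives were another ranking value, equal list length, ranks among shared regions, stricter overlap, other thresholds and, added after the data were seen, summed area scores.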

Additional observations from a re-analysis of the deposited data

Results flagged for a closer look

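The rule is limited to chromosomes 1 to 28, so the other chromosomes are data outside the comparisons above. On chromosomes 30 to 33, 63 of 1057 shared regions met the other criteria of the rule (5.96%, 95% Wilson interval 4.69% to 7.55%) and 10 met the mirror rule (0.946%). Their median change was 3.74 points in OFM and 4.18 in dorsal retina. On chromosome Z, 83 of 3395 met the other criteria (2.44%, 1.98% to 3.02%) and 170 the mirror rule (5.01%), with median changes of −1.42 and −2.54 points. They are listed because the comparisons above leave these chromosomes out. For comparison, 3.49% of shared regions on chromosomes 1 to 28 met the rule. On chromosome W, 0 of 76 met the criteria (upper Wilson limit 4.81%). The intervals for these chromosomes cover counting error alone.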

How the results depend on the processing

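Of 72 recomputed values (6 results under 12 settings), 38 stayed within their limit (1.5 times for counts, the 95% interval of the main value otherwise). The number of rising regions, 2547, moved by construction to 5122 and 781 at a rise of 5 and 20 points, to 1035 with tissues within 5 points and to 5886 without that criterion. The falling regions, 4170, moved to 9041, 1019, 1839 and 8699 in the same order. The count hides which regions: 2001 of the 2547 met the rule when ranked among shared regions alone, 1992 with lists of equal length, 1745 by −log10 q and 1137 by area over width. The share on chromosomes 11 to 28 moved to 37.2% at 50% overlap, 42.1% at 5 points and 41.8% without the tissue criterion, and there the ratio of rising to falling regions turned to 0.983 with tissues within 5 points. Rising regions were 62.0% of rising and falling regions on chromosomes 11 to 28 with lists of equal length and 64.3% when ranked among shared regions alone, against 52.0%. Median width (479 bp) moved to 496 bp by −log10 q, 515.5 bp by area over width, 446.5 bp with summits within 200 bp, 416 bp at 50% overlap, 438 bp with 1 peak in each list, 505 bp and 495 bp at 5 and 20 points, 513 bp with tissues within 5 points and 499 bp without the criterion. The share with another rising region within 50 kb (46.3%) moved to 50.3% by −log10 q, 48.6% by area over width, 54.1% among shared regions alone, 43.8% with summits within 200 bp, 38.8% at 50% overlap, 42.3% with 1 peak in each list, 65.6% and 20.5% at 5 and 20 points, 23.3% with tissues within 5 points and 68.5% without the criterion. The share with a region of both HH34 lists alone within 50 kb (63.6%) moved to 58.8% by area over width, 66.8% at equal length, 61.4% at 50% overlap and 61.6% with 1 peak in each list. Where not by construction, the cause was not tested. No paired analysis was possible because peaks were called jointly and the lists carry no value per replicate. Single replicates could not be left out either. Annotation and sequence results were not run, as no genome of the build was used.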
